A study of Homo sapiens with 4 samples.

Results

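The 10 genes described here encode the FOS, JUN, and EGR immediate early transcription factors, namely FOS, FOSB, FOSL1, and FOSL2, JUN, JUNB, and JUND, and EGR1, EGR2, and EGR3. They are defined by gene symbol, were chosen with earlier results of these data known, and all occur among the 20372 genes of the deposited table. RNA was sequenced from TPC1 cells, an established human papillary thyroid carcinoma line that carries the CCDC6-RET fusion, after 6 h or 24 h with the RET inhibitor BLU6864, in 2 libraries per time point. All 4 libraries therefore come from inhibitor-treated cells of a single line, and vehicle libraries were not analysed here. The dose is 100 µM in the sample labels and 100 nM in the methods, and the labels mark both 24 h libraries as a re-analysis. The comparison asks how transcripts changed between 6 h and 24 h, the interval over which the study follows the return of ERK signaling under RET inhibition. The time points also differ fully in the re-analysis label. Without vehicle libraries, time under the inhibitor, time in culture, and whatever that label marks cannot be told apart here.

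FOS and JUN proteins pair through a leucine zipper to form AP-1, a transcription factor that binds a short palindromic DNA element. EGR proteins bind GC-rich DNA through zinc fingers. The name immediate early refers to genes that are transcribed within minutes of growth factor signaling, without new protein synthesis, from factors that are already in the cell. ERK drives this response through serum response factor (SRF) and its ELK partners, which bind the CArG box, and through CREB, which binds the cyclic AMP response element (CRE). In many cells FOS and EGR1 transcripts are short lived, whereas FOSL1 and FOSL2 accumulate later under sustained ERK activity.

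Total counts were between 23917056 and 27457040 per library. The normalized counts below were obtained from raw counts by TMM scaling to the average effective library size. Neither the labels nor the methods say whether the 2 libraries of a time point come from separate cultures, so the p-values measure the spread between these libraries, which may be technical. Of the thyroid follicular markers, PAX8 had between 19124 and 22978 raw counts, and FOXE1, HHEX, and TG were also above 3 counts in every library. NKX2-1 and TSHR were at 0 in all 4 libraries. The summed normalized counts of the 8 white blood cell markers were between 2618 and 2690 at 24 h and between 4658 and 4885 at 6 h, nearly all of it CD68. LCP1 had 70 and 64 raw counts at 6 h and 29 and 34 at 24 h. No more than 5 counts were found for PTPRC, CD3E, CD52, LYZ, or TYROBP. The summed normalized counts of 3 endothelial markers were between 26.3 and 47.8 at 24 h and between 507 and 542 at 6 h, mostly KDR. Those of 5 fibroblast markers were between 245 and 291 at 24 h and between 605 and 624 at 6 h. Of the fibroblast markers, COL1A1 and PDGFRB were lower at 24 h. LUM was higher, with 39 and 40 raw counts at 6 h and 71 and 66 at 24 h. COL3A1 was at 0 in all 4 libraries, and DCN and the endothelial marker CDH5 had at most 1 raw count. The part of all these markers in the results below was not tested.

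The promoters are shown because EGR1 and EGR2 both hold a CArG box in the searched window before a transcript start, and no match was found in those of FOS, JUN, and JUNB. Sites more than 250 bases before the start were not searched, so these 3 genes may hold a CArG box further upstream. EGR2 fell at 24 h, whereas EGR1 was slightly higher, a call that was lost in 5 of 11 alternatives. RefSeq windows from 250 bases before to 50 bases after the start (GRCh38.p14) were matched by symbol for 8 of the 10 members, in 10 windows, since EGR2 has 3 starts. FOSL1 and EGR3 were not matched. The stretches below are the last 120 bases before the start, 5′ to 3′ on the strand of the gene, with matches to the searched motifs in capitals. They are on chromosome 14 for FOS (chr14:75278708-75278827, plus strand), on chromosome 1 for JUN (chr1:58784048-58784167, minus strand), on chromosome 19 for JUNB (chr19:12791366-12791485, plus strand), on chromosome 5 for EGR1 (chr5:138465359-138465478, plus strand), and on chromosome 10 for the most downstream start of EGR2 (chr10:62816367-62816486, minus strand).
FOS: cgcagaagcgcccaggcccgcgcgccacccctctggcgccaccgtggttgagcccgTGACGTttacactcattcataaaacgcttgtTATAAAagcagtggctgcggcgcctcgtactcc
JUN: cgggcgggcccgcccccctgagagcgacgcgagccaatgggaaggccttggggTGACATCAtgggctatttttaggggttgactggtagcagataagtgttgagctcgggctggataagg
JUNB: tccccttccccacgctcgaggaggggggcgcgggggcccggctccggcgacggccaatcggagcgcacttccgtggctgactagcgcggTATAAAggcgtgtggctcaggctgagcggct
EGR1: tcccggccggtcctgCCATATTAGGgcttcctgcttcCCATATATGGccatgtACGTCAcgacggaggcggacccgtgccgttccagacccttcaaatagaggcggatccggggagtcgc
EGR2: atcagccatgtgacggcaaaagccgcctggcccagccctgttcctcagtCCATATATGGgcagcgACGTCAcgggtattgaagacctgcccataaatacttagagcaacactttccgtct

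Searches covered both strands of the whole windows. The CArG box was found at -105 to -96 and at -83 to -74 in EGR1, and at -71 to -62 in EGR2, counted from the base before the start. No other member window held a CArG box, and 1.29% of the 35116 windows of all genes held at least 1. TGACGT, the core of the CRE, was found in 6 of the 8 members, FOS, FOSB, FOSL2, JUND, EGR1, and EGR2, and in 7.98% of all windows. It lies at -64 to -59 in FOS, at -60 to -55 in FOSB, and at -66 to -61 in FOSL2. On the opposite strand it lies at -136 to -131 and -67 to -62 in EGR1, at -55 to -50 in EGR2, and at -87 to -82 in JUND. The full palindrome TGACGTCA, which holds this core on both strands, was in JUND alone, at -200 to -193, and in 1.85% of all windows. JUN had the related site TGACATCA at -67 to -60, which 2.61% of all windows held. The letters TATAAA were found in FOS, FOSB, and JUNB, at -33 to -28 in FOS, against 11.5% of all windows. An AP-1 site, TGACTCA or TGAGTCA, was found in FOSL2 alone, after the start, against 4.95% of all windows, and an EGR site, GCGTGGGCG or GCGGGGGCG, in 0 members against 5.77%. These are matches of letters only. The core TGACGT was added to the search after the windows had been read.

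**Figure D1:**
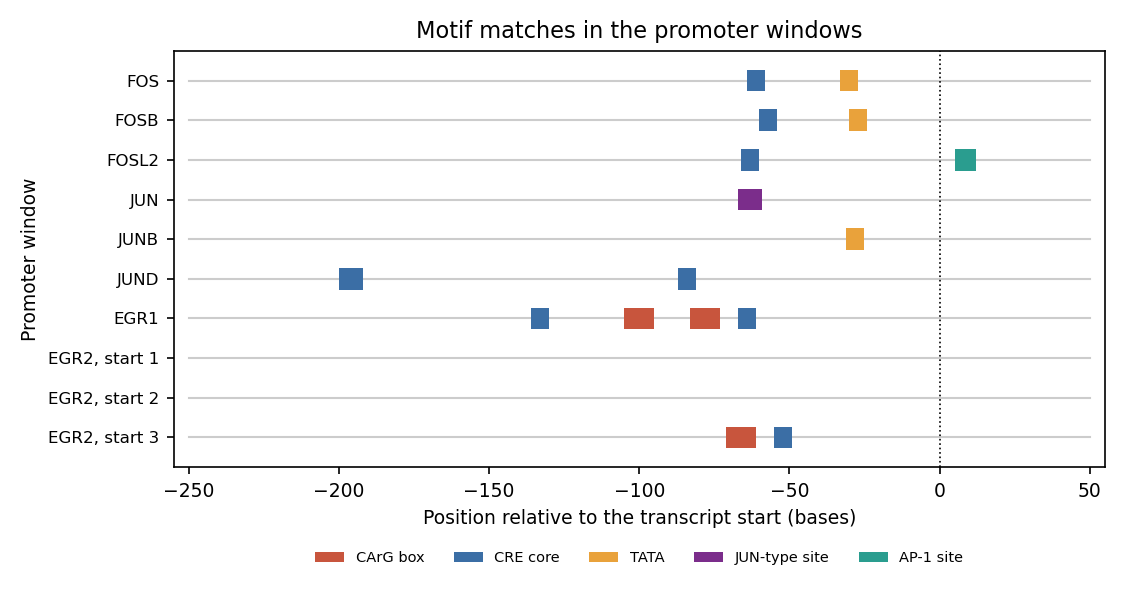
Matches to the searched motifs in the 10 RefSeq promoter windows of 8 members, with the position in bases relative to the transcript start on the horizontal axis and one window per line. The CArG boxes (red) sit at -105 and -83 in EGR1 and at -71 in EGR2, and a CRE core (blue) lies between -67 and -50 in FOS, FOSB, FOSL2, EGR1, and EGR2, with a further one in EGR1 at -136 and those of JUND between -200 and -82.

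The FOS, JUN, and EGR transcripts did not move together between 6 h and 24 h of BLU6864. FOS, JUNB, and EGR2 fell by more than 1 on the log2 scale, FOSL1 rose by that much, JUN rose less, and the other tested members changed by under 0.5 on this scale. Of the 10 members, 9 passed the filter on low counts and were tested among 12876 genes by the quasi-likelihood method of edgeR. All adjusted P values below are from that test unless another tool is named, with Benjamini-Hochberg adjustment over all genes. By this measure, 5 members were higher at 24 h and 4 lower, each with an adjusted P under 0.05, against a background of 33.0% of all genes tested higher and 32.6% lower. Among the lower members, EGR2 passed the filter through its 6 h libraries alone. At the cutoffs of the methods, a change of more than 0.5 in log2 units and P before adjustment under 0.01, 2 members were higher (FOSL1 and JUN) and 3 lower (FOS, JUNB, and EGR2), against 17.4% and 17.7% of all genes tested. The libraries of the 2 time points did not overlap in any of the 9 tested members, nor did they in 81.8% of all genes tested. The median log2 fold change of the 9 members was 0.23, beside 0.0029 for all genes tested.

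**Figure D2:**
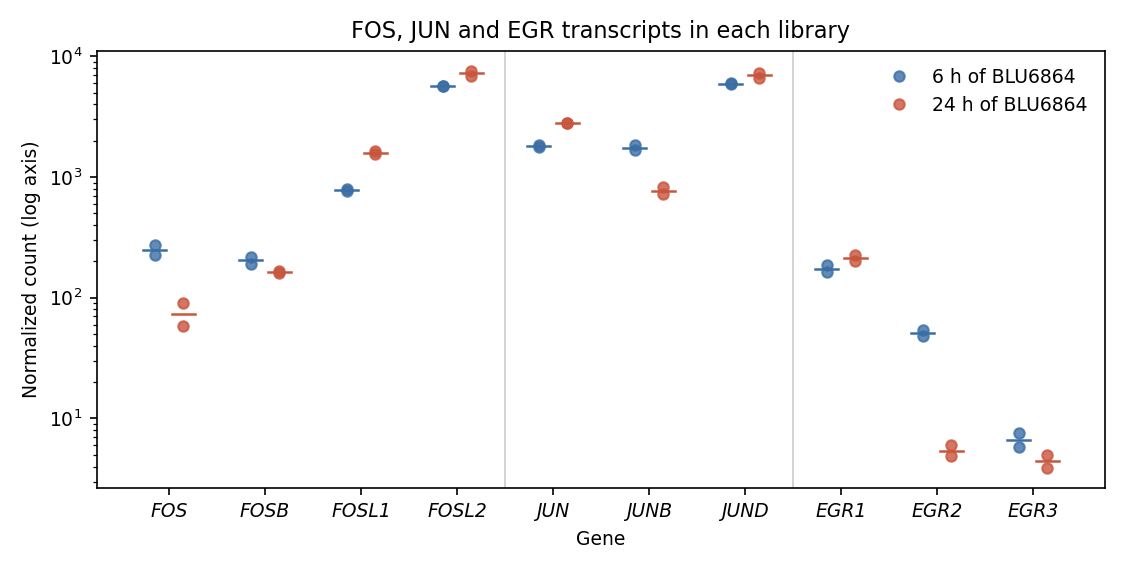
Normalized counts of the 10 members (log axis) in each library, at 6 h (blue) and 24 h (red) of BLU6864, with points for the 2 libraries and a line for their mean. FOS, JUNB, and EGR2 lie lower at 24 h, FOSL1 and JUN lie higher, and EGR3 stays under 8 normalized counts in every library.

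FOS (ENSG00000170345), the founding AP-1 partner of JUN, lies on chromosome 14 of hg19 from 75745477 to 75748933. Normalized counts were 271 and 226 at 6 h and 89.7 and 58.4 at 24 h. Both 24 h libraries were well below both 6 h libraries, and they also differed from each other more than the 6 h pair did in proportion. The mean fell from 249 ± 31.5 to 74.0 ± 22.1 normalized counts (SD, n = 2), 3.35-fold lower at 24 h. The change was -1.75 on the log2 scale (standard error, SE, 0.167, adjusted P = 7.24e-10), and 4.12% of the genes tested lay lower. With the lower of the 24 h libraries left out it was -1.46, and with the higher left out -2.08.

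FOSB (ENSG00000125740, chromosome 19 from 45971253 to 45978437), which like FOS carries a strong activation domain, had 218 and 190 normalized counts at 6 h and 161 and 165 at 24 h. The 24 h libraries lay below the 6 h libraries by a small margin. Its log2 fold change was -0.32 (SE 0.132, adjusted P = 0.0381), and this call was lost in 6 of 11 alternatives, among them DESeq2 (-0.32, adjusted P = 0.205). The position of FOSB overlaps that of ERCC1, a DNA repair gene with between 3356 and 4987 raw counts, whose log2 fold change was -0.50. Since the strand setting of the counting is not given in the sources used here, reads of the pair cannot be told apart.

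FOSL1 (ENSG00000175592, chromosome 11 from 65659520 to 65668044), which encodes FRA1, an AP-1 subunit without that activation domain, changed in the opposite direction to FOS. Normalized counts were 773 and 796 at 6 h and 1637 and 1550 at 24 h. Every 24 h value was close to 2 times every 6 h value, with little spread at either time. The fold change was 2.03, a log2 fold change of 1.02 (SE 0.0754, adjusted P = 4.17e-12), above 93.0% of the genes tested. It stayed between 0.98 and 1.07 in all 11 alternatives.

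FOSL2 (ENSG00000075426, chromosome 2 from 28615315 to 28640179), which encodes FRA2, was already abundant at 6 h. The 6 h libraries had 5671 and 5641 normalized counts and the 24 h libraries 6924 and 7605. The 24 h pair was higher but more spread than the 6 h pair. The log2 fold change of 0.36 (SE 0.0736, adjusted P = 0.000117) was under the fold change cutoff of the methods and kept its call in all 11 alternatives.

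Among the JUN genes, JUN and JUNB changed in opposite directions. JUN (ENSG00000177606, chromosome 1 from 59246465 to 59249785), the strongest activator of the family, had 1763 and 1840 normalized counts at 6 h and 2814 and 2809 at 24 h. The 24 h libraries were nearly equal and stood above both 6 h libraries. This was a 1.56-fold rise, a log2 fold change of 0.64 (SE 0.0700, adjusted P = 8.59e-09).

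JUNB (ENSG00000171223, chromosome 19 from 12902310 to 12904124), which competes with JUN for FOS partners and is a weaker activator at many sites, had 1829 and 1680 normalized counts at 6 h and 820 and 724 at 24 h. Both 24 h values were far below both 6 h values, and the gap was larger than the spread of either pair. The fall was 2.27-fold, a log2 fold change of -1.18 (SE 0.0794, adjusted P = 5.74e-13). The overlapping gene HOOK2 had between 285 and 402 raw counts and a log2 fold change of 0.31, opposite in sign to that of JUNB.

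JUND (ENSG00000130522, chromosome 19 from 18390563 to 18392432), which in most cells is expressed at a steady level and is the member least dependent on stimulation, had 5882 and 5978 normalized counts at 6 h and 6632 and 7275 at 24 h. The 24 h libraries were higher, and they differed from each other by about as much as the lower of them exceeded the 6 h libraries. Its log2 fold change was 0.23 (SE 0.0735, adjusted P = 0.00796). Without 24 h replicate 2, the higher library, the log2 fold change was 0.17 and the adjusted P 0.133.

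EGR1 and EGR2 differed in the sign and the size of their change, and that of EGR1 was small and uncertain. EGR1 (ENSG00000120738, chromosome 5 from 137801179 to 137805004), a sensor of ERK activity in many cells, had 186 and 163 normalized counts at 6 h and 202 and 226 at 24 h. The time points did not overlap, but the gap between their nearest libraries was smaller than the spread within either pair. Its log2 fold change of 0.30 (SE 0.131, adjusted P = 0.0467, 95% interval 0.031 to 0.57) lost its call in 5 of 11 alternatives, among them DESeq2 (0.30, adjusted P = 0.239), the fit without 24 h replicate 2 (0.22, adjusted P = 0.223), and the fit without 6 h replicate 2 (0.20, adjusted P = 0.299).

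EGR2 (ENSG00000122877, chromosome 10 from 64571756 to 64679660), known for its role in myelination and in T cells, was near the lower end of the counts that were tested. It had 45 and 56 raw counts in the 6 h libraries, which are 48.6 and 53.7 normalized counts. The 24 h libraries had 6 and 5 raw counts, or 5.98 and 4.87 normalized counts. All 4 values were above 3 counts, and the 24 h values were close to each other. The log2 fold change of -3.21 (SE 0.367, 95% interval -3.97 to -2.46, adjusted P = 1.96e-08) is the largest of the 9 tested members, and 1.53% of the genes tested lay lower. Since EGR2 passed the filter on low counts through its 6 h libraries alone, the size and P of this fall are descriptive only. EGR2 kept its call in the 10 alternatives that tested it. A stricter filter of 10 counts in each library removed it from the test. The deposited position of EGR2 spans 107905 bases, whereas the transcript used for the levels per kb below has 2979, so those levels are uncertain.

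EGR3 (ENSG00000179388, chromosome 8 from 22545172 to 22550815), a further zinc finger member, had 7 and 6 raw counts at 6 h and 5 and 4 at 24 h. These counts did not pass the filter. Fitted without a filter, its log2 fold change was -0.56 with a 95% interval of -2.04 to 0.92 (adjusted P = 0.539), so neither a fall nor a rise was shown at this depth.

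**Figure D3:**
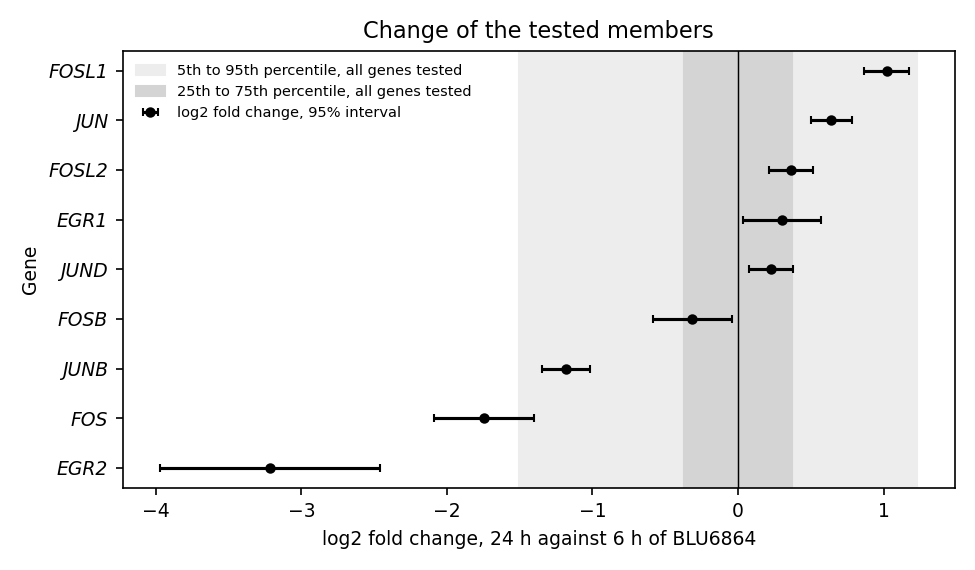
The log2 fold change at 24 h against 6 h for the 9 tested members (points) with its 95% interval from edgeR (bars), over the 5th to 95th and 25th to 75th percentile of all genes tested (grey bands, -1.51 to 1.23 and -0.37 to 0.37). EGR2 and FOS lie below the wide band, JUNB, JUN, and FOSL1 lie between its edges and those of the narrow band, and FOSL2, EGR1, JUND, and FOSB lie within the narrow band.

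Levels were compared between genes as normalized counts per kb of the longest protein-coding transcript in GENCODE v44. The orders below rest on the transcript chosen. Before division by length, JUN had a mean of 2811 normalized counts at 24 h and FOSL1 1594, the reverse of their order per kb. At 6 h the order of levels was JUND, with 3074 ± 35.1 (SD, n = 2), then JUNB with 959 ± 57.5, FOSL2 with 843 ± 3.10, JUN with 553 ± 16.8, FOSL1 with 461 ± 9.71, FOS with 118 ± 15, EGR1 with 55.6 ± 5.09, FOSB with 54.0 ± 5.26, EGR2 with 17.2 ± 1.22, and EGR3 with 1.47 ± 0.282. EGR1 and FOSB overlapped at this time, and the other neighbours did not. At 24 h JUND remained first with 3605 ± 236 counts per kb, but FOSL2 with 1082 ± 71.7 and FOSL1 with 936 ± 36.0 came next, ahead of JUN with 863 ± 0.884 and JUNB with 422 ± 37.1. Then followed EGR1 with 68.2 ± 5.30, FOSB with 43.3 ± 0.755, FOS with 35.2 ± 10.5, EGR2 with 1.82 ± 0.264, and EGR3 with 0.983 ± 0.171 counts per kb. FOSB and FOS differed by less than the SD of FOS, and no other neighbours did so.

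A ratio of members within a library does not depend on the scaling between libraries. FOSL1 exceeded FOS per kb 3.53-fold and 4.35-fold in the 6 h libraries and 22.6-fold and 32.8-fold in the 24 h libraries. JUN was below JUNB per kb at 6 h, with ratios of 0.542 and 0.616, and above it at 24 h, with 1.93 and 2.18. The order at 6 h rests on the lengths used. Before division by length the 2 genes overlapped, with 1763 and 1840 normalized counts for JUN and 1829 and 1680 for JUNB. For EGR1 over EGR2 the ratios were 3.63 and 2.88 at 6 h and 32.1 and 44.1 at 24 h. The 6 h and 24 h ratios did not overlap in any of these 3 pairs, which were chosen after the values were seen. This was bound to follow and adds no support. In each pair, both 24 h libraries lay above both 6 h libraries for the first gene and below them for the second. With 2 libraries per time point an exact permutation test of a ratio cannot reach a P under 0.333, so none was run.

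Within the FOS family, FOSL2 took 81.8% and 82.3% of the raw counts in the 6 h libraries (95% Wilson intervals 80.8% to 82.7% and 81.4% to 83.2%) and 78.6% and 81.1% in the 24 h libraries (77.7% to 79.4% and 80.3% to 81.9%). FOSL1 went from 11.1% and 11.6% to 18.6% and 16.5%, with intervals at 6 h of at most 12.4% and at 24 h of at least 15.8%. FOS went from 3.91% and 3.30% to 1.02% and 0.623%, with intervals at 6 h of at least 2.91% and at 24 h of at most 1.25%. FOSB took 3.15% and 2.77% at 6 h and 1.83% and 1.76% at 24 h. These intervals cover counting error only, and the shares are not per length. Divided by transcript length, FOSL1 made up 31.2% of the family at 6 h and 44.7% at 24 h, and FOS 8.0% and 1.68%.

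In the JUN family, JUND took 62.1% and 62.9% of the raw counts at 6 h and 64.6% and 67.3% at 24 h. JUN went from 18.6% and 19.4% to 27.4% and 26.0%, while JUNB went from 19.3% and 17.7% to 7.99% and 6.70%. In the EGR family, EGR1 took 76.8% and 73.3% at 6 h and 94.9% and 96.3% at 24 h, over only 214 to 241 raw counts per library. The share of EGR2 was 20.1% (95% Wilson interval 15.4% to 25.8%) and 24.1% (19.1% to 30.0%) at 6 h, and 2.80% (1.29% to 5.98%) and 2.07% (0.889% to 4.76%) at 24 h. Summed over the family, normalized counts were 6933 and 6854 at 6 h and 8812 and 9379 at 24 h for FOS members, 9474 and 9498 against 10266 and 10809 for JUN members, and 242 and 223 against 213 and 235 for EGR members. The EGR sums overlapped between the time points, and the FOS and JUN sums did not.

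**Figure D4:**
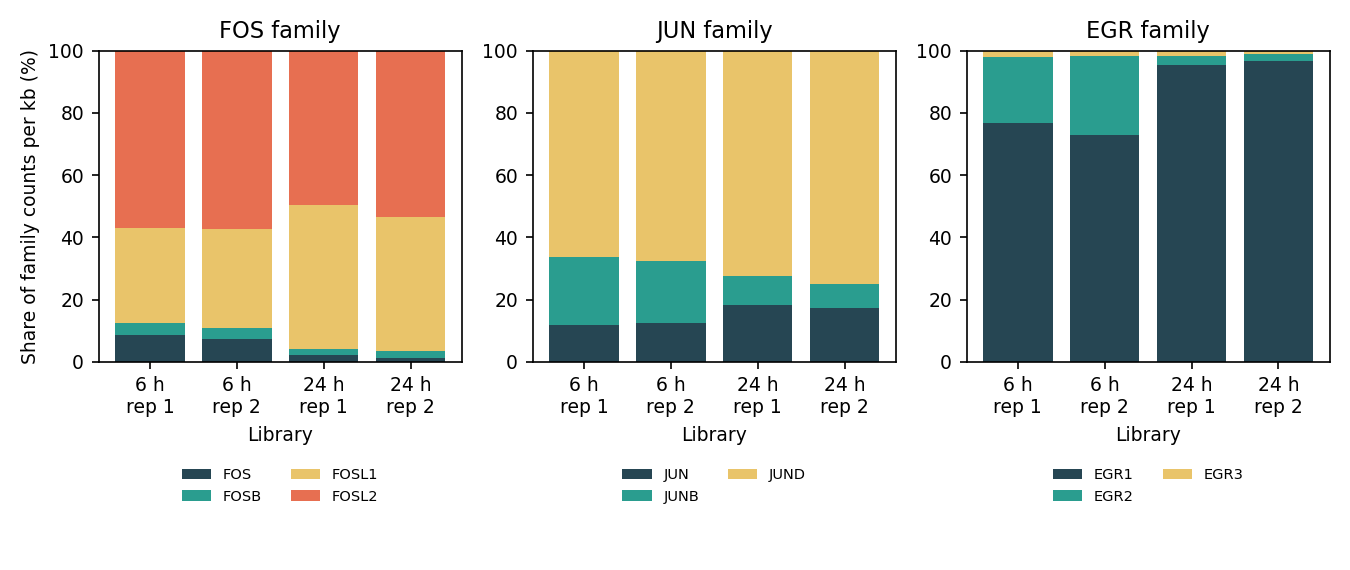
Share of each member in the summed counts per kb of its family (%), stacked to 100 for each of the 4 libraries, in the FOS, JUN, and EGR families. At 24 h FOSL1, JUN, and EGR1 take a larger part than at 6 h, and FOS, JUNB, and EGR2 a smaller part.

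The genes whose profile over the 4 libraries was closest to that of FOSL1, among 10739 genes with a mean normalized count of at least 100, were ITGB2, JAK2, and PEPD, at a Euclidean distance of 0.0282, 0.0312, and 0.0316 between centred log2 CPM. JAK2, a tyrosine kinase of cytokine receptors, had a log2 fold change of 1.02, and ITGB2, an integrin chain, and PEPD, a dipeptidase, had 1.06 and 1.04. The closest to FOS were MCM8, CAPS2, and CCDC77, at larger distances of 0.173, 0.181, and 0.193, with log2 fold changes of -1.66, -1.74, and -1.89. With 4 libraries at 2 time points, such a distance reflects little more than a similar change.

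Other bZIP genes that pair with FOS or JUN proteins were called higher and lower at shares not far from those of all genes. Of 12 listed factors of the ATF, BATF, JDP2, and MAF groups, 9 were tested, and 4 were higher and 2 lower with an adjusted P under 0.05, beside 33.0% and 32.6% of all genes tested. The median log2 fold change was 0.24. ATF3, a stress-induced partner of JUN, fell with raw counts of 155 and 197 at 6 h and 105 and 72 at 24 h (log2 fold change -1.03, SE 0.168, adjusted P = 5.93e-06). BATF2, which lacks an activation domain and is induced by interferon, rose from 24 and 14 to 85 and 55 raw counts (log2 fold change 1.83, SE 0.30, adjusted P = 6.86e-06). MAFF, a small MAF protein, rose with a log2 fold change of 0.64 (adjusted P = 5.81e-05). Of 4 genes around the EGR factors, EGR4 and WT1 were not tested, the corepressor NAB2 had a log2 fold change of 0.055 (adjusted P = 0.607), and the corepressor NAB1 fell with -0.80 (SE 0.0779, adjusted P = 1.08e-09).

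Of the signaling genes that act on immediate early promoters, MEF2C changed most. Of 21 kinases and factors, all tested, 9 were higher and 4 lower with an adjusted P under 0.05, against 33.0% and 32.6% of all genes tested. At the cutoffs of the methods 3 were higher and 1 lower, against 17.4% and 17.7%, and the median log2 fold change was 0.029. The ERK gene MAPK3 had a log2 fold change of 0.30, and SRF had 0.27. RPS6KA2, a kinase downstream of ERK, rose with 0.78, and MRTFA, a cofactor of SRF, rose with 0.65. MAPK10, a JUN kinase gene with between 76 and 123 raw counts, had 0.53. MAPK8 and MAPK9, which encode the JUN kinases JNK1 and JNK2, and MAP2K4, which activates them, each fell by between 0.24 and 0.26 on the log2 scale. MAP2K7, also listed, had 0.027 (adjusted P = 0.756). MEF2C, a factor that acts beside SRF on several of these promoters, fell from 269 and 293 to 69 and 57 raw counts, a log2 fold change of -2.20 (SE 0.150, adjusted P = 8.50e-13). The related genes MEF2A and MEF2D had more counts and did not fall. MEF2A rose from 1488 and 1624 to 2072 and 2134 raw counts (log2 fold change 0.39), and MEF2D had 0.029 (adjusted P = 0.742).

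Of the other immediate early genes, CCN1 and MYC rose most and NR4A3 and KLF2 fell most. Of 27 listed genes, 25 were tested, and 10 were higher and 11 lower with an adjusted P under 0.05, where 33.0% and 32.6% of all genes tested were. The median log2 fold change was -0.14. At the cutoffs of the methods, 8 were higher and 9 lower, beside 17.4% and 17.7% of all genes tested. CCN1, a secreted matricellular protein, rose most, from 799 and 806 to 9744 and 11042 raw counts, a log2 fold change of 3.65 (SE 0.0865, adjusted P = 9.11e-23). MYC rose from 431 and 472 to 2603 and 2722 raw counts (log2 fold change 2.51), and the related CCN2 and the small GTPase gene RHOB had 1.49 and 1.52. KLF6, DUSP5, KLF10, and BTG2 rose with log2 fold changes between 0.51 and 0.86. On the other side, KLF2 fell from 632 and 611 to 105 and 130 raw counts (log2 fold change -2.45), and KLF4 had -1.84. Of the orphan nuclear receptor genes, NR4A3 fell from 33 and 54 to 8 and 3 raw counts (log2 fold change -3.00, SE 0.412) and NR4A2 had -1.23, while NR4A1 had 0.32 with an adjusted P of 0.0400 that was lost in 7 of the alternatives. NR4A3 passed the filter on low counts through its 6 h libraries alone. DUSP1, a nuclear phosphatase that switches off ERK, JNK, and p38, fell with -1.12, and IER5, SGK1, IER2, and PHLDA1 fell with log2 fold changes between -1.04 and -0.71.

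Among known AP-1 and EGR1 target genes, most were lower at 24 h. Of 20 listed genes, 19 were tested, and 4 were higher and 14 lower with an adjusted P under 0.05, against a background of 33.0% and 32.6%. Their median log2 fold change was -1.12, beside 0.0029 for all genes tested. The list was chosen with earlier results of these data known, so these counts and this median are descriptive only. PTGS2, which encodes the inducible cyclooxygenase COX-2, fell from 11454 and 10869 to 135 and 120 raw counts, a log2 fold change of -6.50 (SE 0.113, adjusted P = 1.25e-24). MMP1, an interstitial collagenase, fell from 6360 and 7525 to 289 and 275 raw counts (log2 fold change -4.66), and MMP3 and MMP9 had -3.21 and -2.57. MMP10 had 22 and 23 raw counts at 6 h and 2 in each 24 h library, and passed the filter through its 6 h libraries alone. F3, PLAUR, CXCL8, TIMP1, HMGA1, and CD44 fell with log2 fold changes between -1.70 and -0.61. IL6 and CCND1, the genes for interleukin 6 and cyclin D1, rose with 1.11 and 0.73. These genes respond to many other factors as well, and the part of AP-1 or EGR1 in their changes was not tested.

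**Figure D5:**
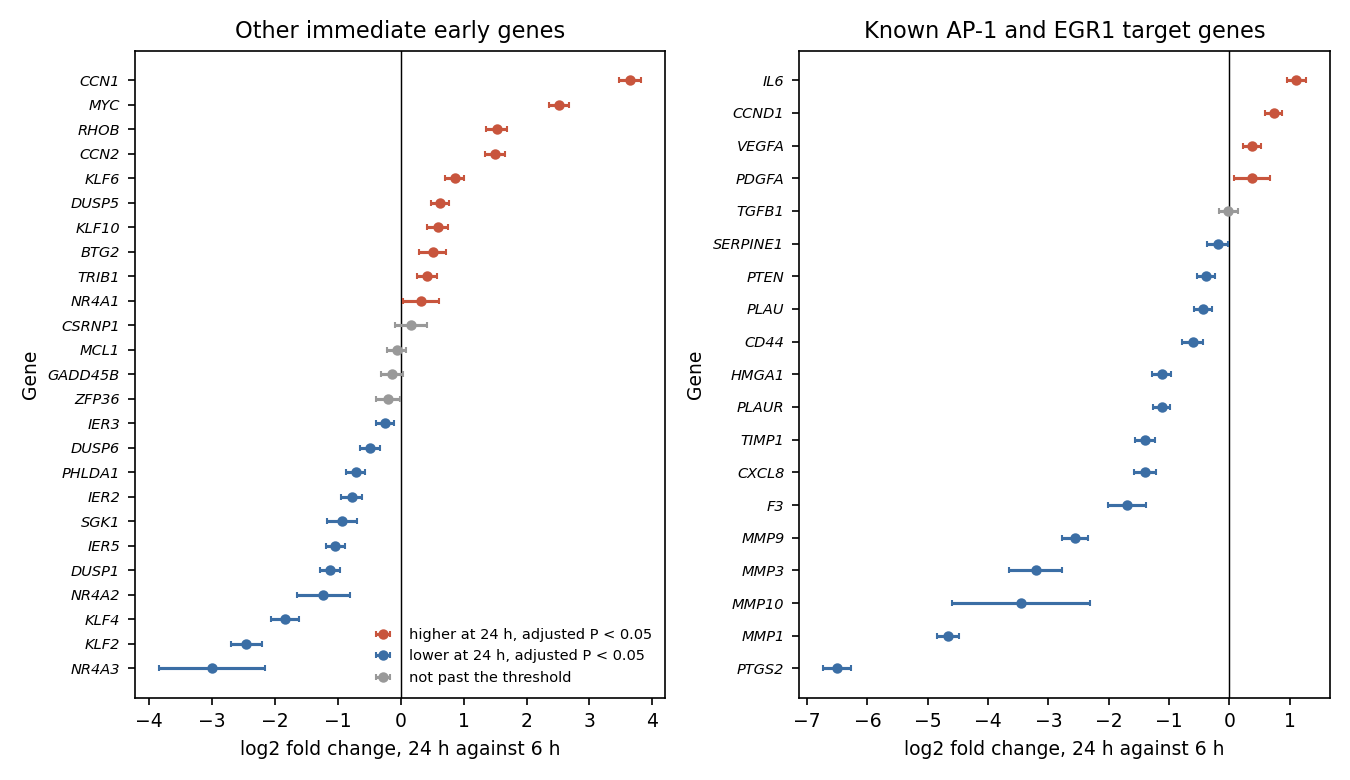
The log2 fold change at 24 h against 6 h, with 95% intervals from edgeR, of 25 other immediate early genes (left) and 19 known AP-1 and EGR1 target genes (right) that were tested. The left panel runs from -3.00 in NR4A3 to 3.65 in CCN1 with 10 genes higher (red) and 11 lower (blue), and in the right panel 14 of 19 genes are lower.

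Because immediate early genes also respond to the handling of cells, 8 heat shock genes were examined. At an adjusted P under 0.05, 2 were higher and 4 lower, against 33.0% and 32.6% of all genes tested, and the median log2 fold change was -0.15. HSPB1 fell with -0.84, and HSPA8 had 0.50. HSPA1A had -1.10 over 11 to 26 raw counts, but it is nearly identical to HSPA1B (-0.45), so counts of this pair are uncertain. The summed normalized counts of the 8 genes were between 99066 and 104970 at 24 h and between 104260 and 107800 at 6 h. These sums hide opposite changes of abundant genes. Mean normalized counts went from 36405 at 6 h to 51455 at 24 h for HSPA8 and from 33547 to 18797 for HSPB1. The part of the 8 genes in the changes of the members was not tested.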

How the data were processed

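RNA of TPC1 cells under BLU6864 was sequenced in 2 libraries at 6 h and 2 at 24 h. The authors aligned the reads to hg19 with STAR (version 2.3 in the submitters' processing notes, while the methods name another) and deposited raw counts per gene. How reads were assigned to genes, and with what strand setting, is not given in the sources used here. Also deposited, and not used here, were a signal (counts over a DESeq2 size factor per library) with its mean and the authors' own comparison, which holds log2 changes, their errors, a Wald score, and p-values. Unmapped columns of values per sample numbered 0.

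The raw counts were analysed in R 4.3.3 by the quasi-likelihood test of edgeR 4.0.16 after TMM normalization. Of all genes, filterByExpr retained 12876, with 99.97% of the counts, and the model had time as its only term. P was adjusted over these genes by the Benjamini-Hochberg method. Each standard error is the log2 change over the square root of F. Transcript lengths came from GENCODE v44 by Ensembl identifier for all 10 members, and promoter windows from RefSeq. The procedure was tested on simulated counts. Plots were drawn with matplotlib 3.10.9. The members and lists were chosen with earlier results of these data known. Of each list, the genes past the cutoffs could be named and the gene with the largest change was, and a few others were chosen after their values were seen. Alternatives were DESeq2 1.42.0, scaling by library size only or by upper quartile, no filter, a minimum of 10 counts per library, a block on replicate number, a cutoff of 0.01 on the adjusted P, and omission of each library. Some genes of the lists are not reported by name here.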

Additional observations from a re-analysis of the deposited data

How the results depend on the processing

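Of the 9 tested members, FOS, FOSL1, FOSL2, JUN, and JUNB kept direction and call in all 11 alternatives and EGR2 in the 10 that tested it, whereas JUND kept its call in 10, EGR1 in 6, and FOSB in 5 of 11. Over the 99 genes refitted, none (0) of 1086 pairs of gene and alternative reversed a called direction, 53 lost the call, and 4 gained it. The cutoff of 0.01 on the adjusted P reuses the main fit. No direction could reverse under it, and every call with a main adjusted P above 0.01, such as those of EGR1 and FOSB, was bound to be lost. Each fit that leaves out a library assumes that the lone library of its time point varies like the other pair. Across these fits the number of members higher at 24 h ranged from 3 to 5, lowest without 24 h replicate 2, where JUND and EGR1 were lost, and the number of other AP-1 factors higher from 2 to 4, lowest without 24 h replicate 2 and without 6 h replicate 1. The number of heat shock genes lower ranged from 2 to 4, lowest without 24 h replicate 2. With DESeq2 and with an adjusted P under 0.01, 2 other AP-1 factors were higher in place of 4.

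Both time points have a replicate 1 and a replicate 2, with no statement of what the numbers share. Deviations from the group means correlated at 0.0844 between libraries of equal number. A replicate block left 5 members higher and 4 lower, the counts obtained without it.

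Dividing counts by transcript length moved the shares within a family by more than the spread between libraries, except for EGR1 and EGR2, whose shares moved by less. In this order for 6 h and 24 h, they became 8.0% and 1.68% for FOS, 3.66% and 2.06% for FOSB, 31.2% and 44.7% for FOSL1, 57.1% and 51.6% for FOSL2, 12.1% and 17.7% for JUN, 20.9% and 8.65% for JUNB, 67.0% and 73.7% for JUND, and 1.98% and 1.40% for EGR3, since the members differ in length. Depth limits EGR3 and EGR2 at 24 h, which had at most 7 raw counts.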
